A study of Rattus norvegicus with 10 samples.

Results

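Ion channels that open with voltage or pass potassium were followed in isolated pancreatic islets of rats of 5 groups. The members are all genes on the array whose single annotated symbol starts with Kcn (potassium channels), Cacn (voltage-gated calcium channels) or Scn (voltage-gated sodium channels), without Kcnj11 and the epithelial sodium channels. The rule gave 111 genes of 14217 named genes, measured by 176 probe sets, and where several measured a gene, the brightest on average stands for it. By role the 111 are 31 pore subunits of voltage-gated potassium channels, 14 inward rectifiers, 11 tandem pore-domain potassium channels, 7 potassium channels gated by calcium or sodium with their auxiliary subunits, and 11 auxiliary subunits of voltage-gated potassium channels. The others are 10 calcium channel pores, 14 calcium channel auxiliary subunits, 9 sodium channel pores, 3 sodium channel beta subunits, and Scnm1, which is an RNA splicing factor and no channel.

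All animals were 40 days old, and each group has 2 arrays. DR+/+ and JB are BioBreeding (BB) lines that lack the lyp mutation and whose diabetes is inducible, JBlyp/lyp is homozygous for lyp and prone to diabetes, and F344 and F344lyp are healthy control lines without and with lyp. lyp is the lymphopenia locus of the BB rat, and its mutation lies in Gimap5, a gene needed for T cell survival. The growth protocol derives DR+/+ and JBlyp/lyp animals from heterozygous DR breeders and calls the BB animals congenic, but says nothing of how the JB and DR lines are related. JBlyp/lyp against JB, called lyp in JB here, can thus also hold a difference between lines. F344lyp is written F344lyp/lyp in the protocol. The labels call the 2 arrays of a group biological replicates without saying whether each holds 1 animal or a pool, so p-values measure only the spread between these arrays. The protocol names male, fasted animals for islet isolation.

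Beta cells of the islet are electrically excitable. When glucose metabolism closes ATP-sensitive potassium channels the membrane depolarises, voltage-gated sodium and calcium channels fire, and calcium entry through L-type and other calcium channels triggers insulin release. Voltage-gated and calcium-activated potassium channels then repolarise the cell, and G-protein-gated inward rectifiers and tandem pore-domain channels set how easily it fires. Pore subunits form the channel, while auxiliary subunits change its gating and its transport to the membrane. Many of the same families also serve smooth muscle, pericytes, nerve and exocrine epithelium, which an islet preparation can hold.

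The values are log2 RMA intensities, the array's probe-level signals after background correction, normalization and summary, and a difference of 1 is a doubling. They order the groups for 1 gene but do not rank genes against each other. The insulin genes marked the tissue, with Ins1 at 13.86 to 14.27 and Ins2 at 13.42 to 13.98 over the 10 arrays. Replicate arrays correlated at 0.981 to 0.997 over probe sets. The DR+/+ arrays stood apart: the mean of 10 beta cell markers was 9.66 and 9.67 there and 11.29 to 11.69 on the other 8 arrays. Stellate and fibroblast markers stood at 9.88 and 9.92 in DR+/+ against 8.43 to 8.71 elsewhere, and endothelial markers at 9.69 and 9.72 against 8.34 to 8.80. Acinar markers were at 12.22 to 13.00 on the F344 and F344lyp arrays and at 9.63 to 11.11 on the BB arrays. The 3′ minus 5′ Gapdh control signal, a measure of RNA quality and labelling, was 2.75 to 3.71 on BB arrays and 2.19 to 2.43 on F344 and F344lyp arrays, while the same measure for actin was 2.57 to 4.17 and 2.72 to 3.06. In bulk islets fewer cells of a type and less RNA per cell cannot be told apart.

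**Figure D1:**
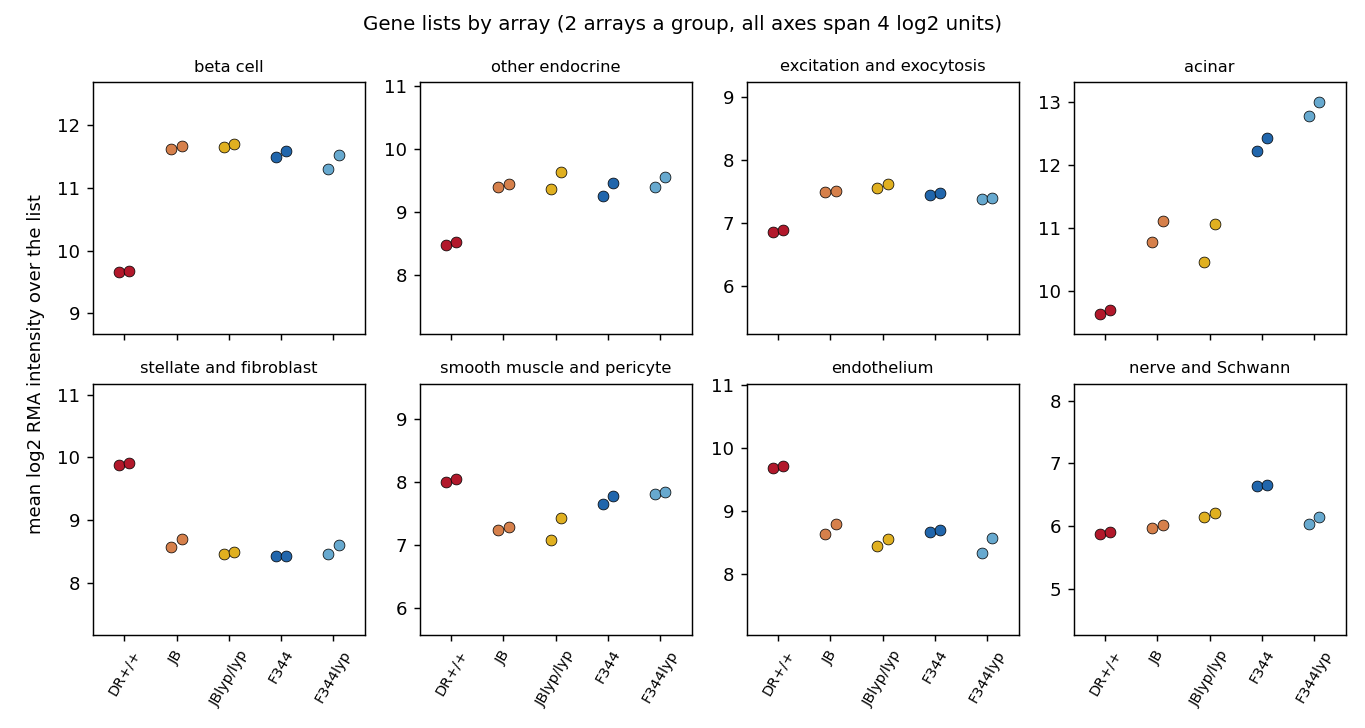
Mean log2 RMA intensity over each of 8 gene lists (vertical axis) on each array, by group (horizontal axis); points are the 2 arrays of a group. The DR+/+ arrays are lowest for the beta cell list (9.66 and 9.67) and highest for the stellate and fibroblast list (9.88 and 9.92), and the F344 and F344lyp arrays are highest for the acinar list.

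The upstream windows of 4 genes on which the results turn are shown, Kcne1 and Kcnj15 for the differences between BB and F344 and Kcnj5 and Scn2b for those of DR+/+. Each holds the 250 bases before the annotated start in the RefSeq annotation of GRCr8, 5′ to 3′ on the gene's strand. They lie at chr11:45077034-45077283 (minus strand), chr11:48070700-48070949 (plus), chr8:39011097-39011346 (minus) and chr8:54322133-54322382 (plus). Capitals mark 3 motifs searched on both strands: the GC box GGGCGG, the E-box CAGATG, and TGACG, the core of a cAMP response element.
Kcne1: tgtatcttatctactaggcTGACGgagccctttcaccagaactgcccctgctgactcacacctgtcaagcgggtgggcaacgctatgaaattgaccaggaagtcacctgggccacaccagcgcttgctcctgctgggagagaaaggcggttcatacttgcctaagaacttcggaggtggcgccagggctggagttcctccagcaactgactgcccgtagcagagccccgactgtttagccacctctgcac
Kcnj15: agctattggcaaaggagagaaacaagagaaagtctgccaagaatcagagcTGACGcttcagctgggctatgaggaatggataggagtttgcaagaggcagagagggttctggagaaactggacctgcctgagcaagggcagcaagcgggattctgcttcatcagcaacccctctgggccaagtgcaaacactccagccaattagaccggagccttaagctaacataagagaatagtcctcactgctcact
Kcnj5: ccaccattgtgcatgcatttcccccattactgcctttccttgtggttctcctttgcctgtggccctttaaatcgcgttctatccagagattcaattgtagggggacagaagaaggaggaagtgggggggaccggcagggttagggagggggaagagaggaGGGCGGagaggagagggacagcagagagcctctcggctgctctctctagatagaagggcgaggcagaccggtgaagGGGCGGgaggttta
Scn2b: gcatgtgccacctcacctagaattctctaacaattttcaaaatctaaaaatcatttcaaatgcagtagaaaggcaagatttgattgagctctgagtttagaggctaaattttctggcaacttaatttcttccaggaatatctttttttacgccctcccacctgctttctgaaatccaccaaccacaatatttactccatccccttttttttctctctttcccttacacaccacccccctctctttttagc
Kcne1 and Kcnj15, which went in opposite directions between BB and F344, both hold 1 TGACG and neither of the other motifs. Kcnj5 holds 2 GC boxes, and Scn2b holds none of the 3 motifs in 250 bases that are 38.8% G or C. Windows were found for 78 of the 111 genes, 87 in all since some genes have several. The GC box lay in 52.9% of these 87 windows and in 30.5% of all 33469 windows of that length, CAGATG in 4.6% and 14% and TGACG in 19.5% and 18.2%. Among the windows of members lower in DR+/+ than in JB the GC box was in 12 of 24, and among those of members higher there in 8 of 11. A match is a string of letters and not a shown binding site.

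Of the 111 genes, 43 passed the test (limma adjusted p under 0.05) in at least 1 of 8 comparisons and 68 passed in none. The share of 38.7% lies below that of all named genes, of which 57.2% passed in at least 1. Dim probe sets are common in these families: 66 members lay below the median probe set (5.44), and 13 of the 43 that passed are among them. The distance between the highest and the lowest group mean of a member had a median of 0.50, against 0.72 over all named genes, and the pooled SD between replicates had a median of 0.17. It was over 1 for 27 members (24.3%, against 33.3% of all named genes). Of these 27, DR+/+ was the lowest group for 18 and the highest for 7. How often DR+/+ was the extreme group over all named genes was not counted. DR+/+ also differed widely there: 40.1% of all named genes passed against F344 and 34% against JB. The widest spans were those of Kcne1 (3.49), Kcna2 (3.12), Scn2b (2.92) and Kcnj5 (2.71).

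DR+/+ and JB are both BB lines without lyp, and their comparison shows where the BB groups differ from each other. In DR+/+ 23 members fell, among them Cacna1d, Cacna1b, Kcnma1, Kcnj5 and Scn2b, 12 rose, among them Kcnj8 and Kcnab1, and the others did not pass. Over all named genes 18.4% were lower and 15.5% higher, so the member shares of 20.7% and 10.8% are near the background. Among the 45 members at or above the median probe set 19 fell (42.2%, against 25% of 9694 genes at that level) and 6 rose (13.3%, against 17.2%). The median difference over the members was -0.11, against -0.04 over all genes. These falls went together with the lower beta cell marker level in DR+/+ (9 of 10 markers fell, median -1.73), and the part of cell composition in them was not tested.

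Of the calcium channel pores, Cacna1d and Cacna1b fell and the other 8 did not pass. Over all named genes 18.4% fell and 15.5% rose in DR+/+ against JB. Cacna1d, an L-type pore of beta cells, was at 5.34 and 5.98 in DR+/+, 7.32 and 7.31 in JB, 7.52 and 6.98 in JBlyp/lyp, 6.77 and 6.59 in F344 and 7.22 and 7.27 in F344lyp. The DR+/+ arrays lay below all others, and the difference from JB was -1.66 (SE 0.23, adjusted p = 0.000504). Cacna1b, the N-type pore, was at 4.19 and 4.44 in DR+/+, 6.20 and 6.62 in JB, 6.21 and 6.88 in JBlyp/lyp, 5.68 and 5.91 in F344 and 5.99 and 5.93 in F344lyp. Its DR+/+ arrays were also the lowest, by -2.09 against JB (SE 0.23, adjusted p = 0.000123). Cacna1c, the other main L-type pore, was at 7.00 and 6.95 in DR+/+ and 6.62 and 7.27 in JB, and its groups overlap. Its difference was 0.03, with a 95% interval of -0.47 to 0.53. Cacna1a, the P/Q-type pore, stood at -0.21 (interval -0.61 to 0.19) and Cacna1h, a T-type pore, at -0.70 (adjusted p = 0.0596).

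Of the 14 calcium channel auxiliary subunits 3 fell, beside 18.4% of all named genes. Cacna2d1, the alpha2delta subunit bound by gabapentin, was at 6.50 and 6.59 in DR+/+, against 8.05 to 8.92 on the other 8 arrays, and fell by 1.78 from JB to DR+/+ (SE 0.22, adjusted p = 0.000262). Cacnb3, a beta subunit, was at 5.39 on both DR+/+ arrays and at 6.51 to 7.07 on the others, a difference from JB of -1.44 (SE 0.15, adjusted p = 9.28e-05). Cacnb2, another beta subunit, was at 7.66 on both DR+/+ arrays and at 8.61 to 9.0 on the others, a difference of -1.10. For all 3 genes the DR+/+ arrays lay clear of every other array. Of the others 1 rose and 10 did not pass.

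Among potassium channel pores, both directions occurred. Kcnma1, the pore of the large-conductance calcium-activated channel, was at 8.74 and 8.68 in DR+/+, 10.53 and 11.35 in JB, 10.61 and 11.33 in JBlyp/lyp, 10.07 and 10.03 in F344 and 10.11 and 10.45 in F344lyp. It was lowest in DR+/+, by -2.23 against JB (SE 0.29, adjusted p = 0.000329). Kcnj5, a G-protein-gated inward rectifier, was at 4.33 and 4.96 in DR+/+ and at 6.99 to 7.43 on all other arrays. Its difference from JB of -2.51 (SE 0.19, adjusted p = 1.87e-05) was the largest of any member in this comparison. Kcna4, a fast-inactivating voltage-gated pore, was at 3.72 and 4.18 in DR+/+ and at 5.99 to 6.76 elsewhere, a difference of -2.27 (SE 0.23, adjusted p = 7.24e-05). The ether-a-go-go-related pores Kcnh2 and Kcnh6 fell by 1.58 and 1.72. Kcnh2 was at 5.59 and 5.10 in DR+/+ against 6.67 to 7.69 on the others, and Kcnh6 at 6.70 and 6.44 against 7.38 to 8.49. Of the 31 voltage-gated potassium pores 5 fell and 3 rose, beside 18.4% and 15.5% of all named genes. The falls also include Kcnc2 at -1.47 and Kcna2 at -1.46. Among tandem pore-domain channels Kcnk12 fell by 1.61 and Kcnk3, an acid-sensitive background channel, by 0.77.

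Of the sodium channel genes, 3 of 9 pores and 2 of 3 beta subunits fell, beside 18.4% of all named genes. Scn2b, a beta subunit, was at 6.08 and 5.69 in DR+/+, 7.90 and 7.97 in JB, 8.11 and 8.14 in JBlyp/lyp, 8.87 and 8.76 in F344 and 8.26 and 8.13 in F344lyp. It was lowest in DR+/+, by -2.05 against JB (SE 0.15, adjusted p = 1.68e-05). Scn3b, a second beta subunit, was at 9.48 and 9.37 in DR+/+ and at 10.04 to 11.19 on the others, a difference of -1.33 (SE 0.21, adjusted p = 0.00107). The pores Scn9a and Scn3a, the sodium channels best known from rodent islets, fell by 1.94 (adjusted p = 1.26e-05) and 0.97 (adjusted p = 0.00511). Scn8a did not pass, at -0.14. Scn4b, the remaining beta subunit, was at 5.23 and 4.96 in DR+/+ and 4.44 and 4.48 in JB, a rise of 0.64 (adjusted p = 0.00914) that did not pass without DR+/+ replicate 1 (adjusted p = 0.074).

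The members that rose in DR+/+ against JB include subunits known from vessels and epithelia. Kcnj8, the pore of the ATP-sensitive potassium channel of vascular smooth muscle and pericytes, was at 7.33 and 7.53 in DR+/+, 5.58 and 6.26 in JB, 5.98 and 6.08 in JBlyp/lyp, 5.88 and 5.92 in F344 and 6.08 and 6.38 in F344lyp. The DR+/+ arrays were above all others, by 1.51 against JB (SE 0.21, adjusted p = 0.000592). Beside it, 4 of 10 smooth muscle and pericyte markers rose and 0 fell (median 0.67). Stellate and fibroblast markers rose in 9 of 11 (median 1.31) and endothelial markers in 10 of 11 (median 0.82). Over all named genes 15.5% rose and 18.4% fell against JB. Against F344, where Kcnj8 stood at 1.53, 4 smooth muscle and pericyte markers rose and 4 fell (median 0.11). Stellate and fibroblast markers rose there in 9 of 11, and of the endothelial markers 8 rose and 1 fell. Over all named genes 16.3% rose and 23.8% fell against F344. The part of these cells in the rises was not tested. Kcnmb1, the beta subunit of the large-conductance channel in smooth muscle, was dim, at 3.57 to 3.86 on all arrays. Its difference from JB was -0.01 (interval -0.30 to 0.29). Kcnab1, an auxiliary subunit of voltage-gated potassium channels, was at 8.68 and 8.80 in DR+/+ and at 6.10 to 7.23 on the others, a rise of 1.78 against JB (SE 0.29, adjusted p = 0.00125). Kcnq1, a pore of epithelia and heart, rose by 1.70 against JB, the modulatory subunit Kcns3 by 1.39 and Kcnd3, an A-type pore, by 1.33. Kcnk5, an alkaline-activated background channel, rose by 0.89 and Kcne4, an auxiliary subunit, by 0.77. Against F344 Kcns3 stood at 0.31 (limma adjusted p = 0.155) and Kcne4 at 0.09 (limma adjusted p = 0.764), and neither passed. Kcnq1, Kcnd3 and Kcnk5 passed there, at 0.80, 1.96 and 0.58. The Kcne4 call ended without DR+/+ replicate 1 (adjusted p = 0.0962) or JB replicate 1 (adjusted p = 0.0696).

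**Figure D2:**
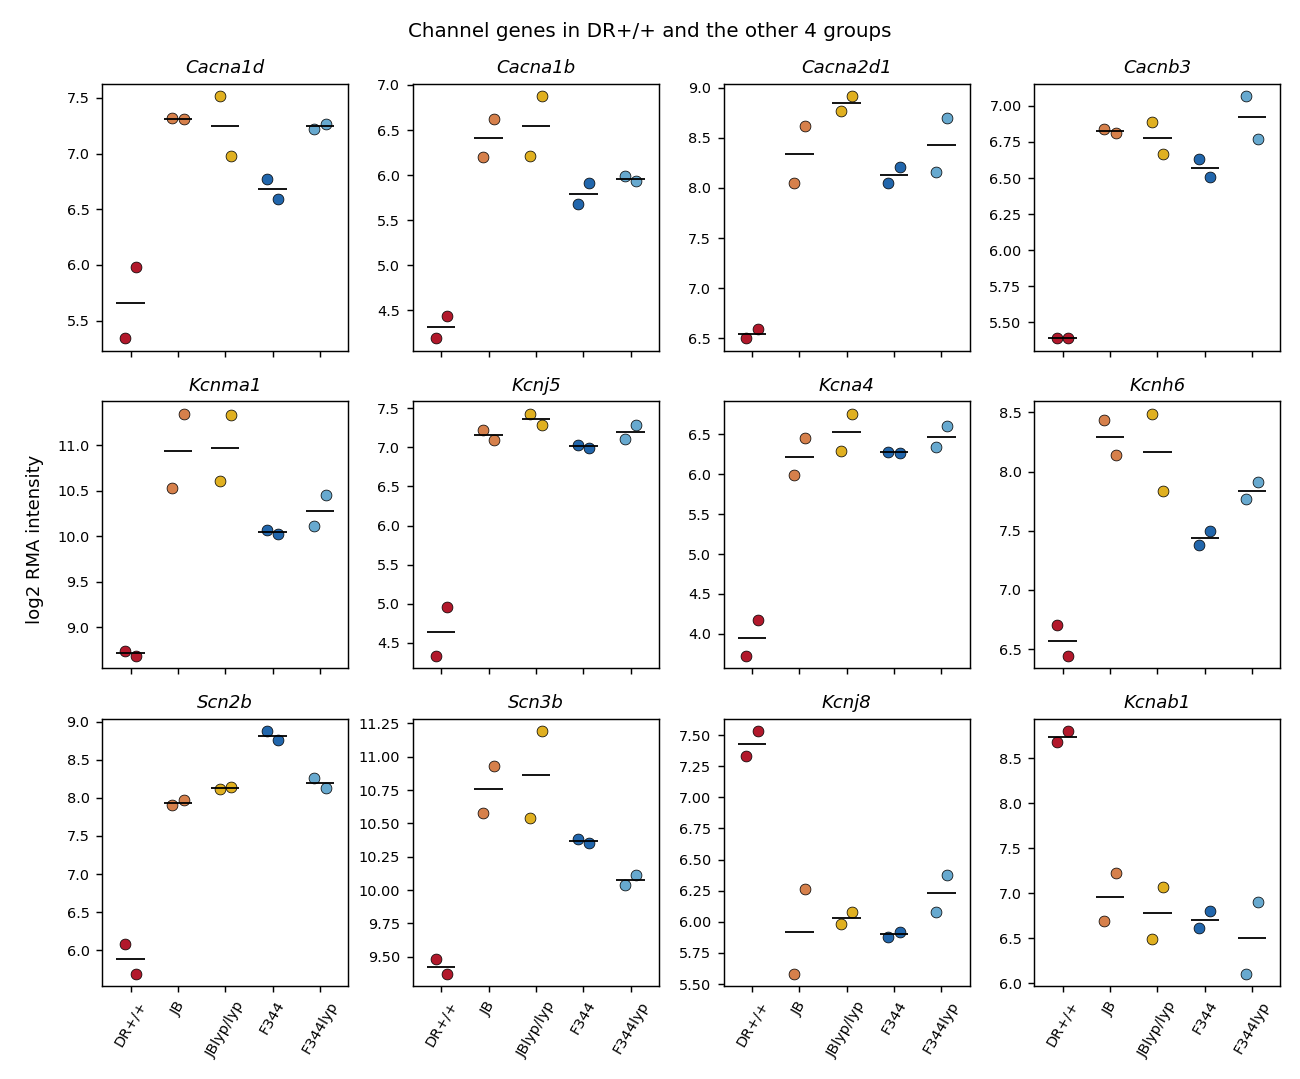
log2 RMA intensity (vertical axes, each on its own scale) of 12 channel genes on each array, by group; bars are group means of 2 arrays. The DR+/+ arrays lie below all other arrays for the first 10 genes (Kcnj5 at 4.33 and 4.96 against 6.99 to 7.43) and above them for Kcnj8 and Kcnab1.

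Against F344, the control without lyp, 23 members were lower in DR+/+ and 9 higher, 20.7% and 8.11% beside 23.8% and 16.3% of all named genes. Among the brighter 45 the shares were 42.2% and 11.1%, beside 31.1% and 19.1%. This comparison shares the DR+/+ arrays with the one above, so the values are given side by side and not as a second line of support. Cacna1d stood at -1.02, Cacna1b at -1.48, Cacna2d1 at -1.58, Cacnb3 at -1.19, Kcnma1 at -1.34, Kcnj5 at -2.37, Kcna4 at -2.32, Scn2b at -2.92 and Kcnj8 at 1.53. Kcna2, a delayed rectifier pore, had the largest fall, by -3.12 (SE 0.20, adjusted p = 5.92e-06). Some calls rested on single arrays: that of Cacna1d (adjusted p = 0.00694) ended without DR+/+ replicate 1 (adjusted p = 0.0571) or F344 replicate 1 (adjusted p = 0.0615). Those of Kcnh6 (-0.87) and Kcnk3 (-0.69) ended without DR+/+ replicate 2 (adjusted p = 0.0859 and 0.0553) or F344 replicate 1 (adjusted p = 0.0515 and 0.0935), and that of Kcnh6 also without F344 replicate 2 (adjusted p = 0.0785).

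JB against F344 compares a BB line with the control line without lyp, and JBlyp/lyp against F344lyp compares BB and control with it. The 2 differences share no array, but their tests share 1 estimate of the spread from all 10 arrays. As the relation of JB to DR is not given, the 2 comparisons may not be of the same BB background. In JB 5 members rose and 6 fell, beside 4.79% and 8.22% of all named genes (4.5% and 5.41% of members). In JBlyp/lyp 7 rose and 4 fell, beside 4.7% and 11.3% (6.31% and 3.6% of members). The median difference over the members was 0.01 in JB and 0.18 in JBlyp/lyp, against -0.04 over all genes in both comparisons. Among the brighter 45 the JB shares were 11.1% for either direction, beside 6.44% and 10.1%, and the JBlyp/lyp shares 13.3% and 4.44%, beside 6.12% and 12.9%. Several beta cell pores and subunits named above did not pass in either comparison. Cacna1d stood at 0.64 (adjusted p = 0.109) and 0.00, Cacna2d1 at 0.20 and 0.41, Kcnma1 at 0.89 (adjusted p = 0.0772) and 0.69, Kcnj5 at 0.15 and 0.16, and none of these passed. Beta cell markers had medians of 0.12 and 0.32 in the 2 comparisons. The JB count of 11 was 5, 7 and 6 without F344 replicate 1, F344 replicate 2 and JB replicate 2. The JBlyp/lyp count of 11 was 6 without either DR+/+ or either F344 array, which enter only its estimate of the spread, and 5 without either F344lyp array.

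Rises common to both were found for Kcnj15, Scn7a, Scn9a and Kcnip1, which are 80% of the JB rises and 57.1% of the JBlyp/lyp rises; over all named genes the shares were 53.6% and 54.6%. Kcnj15, an inward rectifier, was at 7.16 and 6.91 in JB, 7.13 and 7.59 in JBlyp/lyp, 6.95 and 7.10 in DR+/+, 5.65 and 5.44 in F344 and 5.59 and 5.76 in F344lyp. The 6 BB arrays lay above the 4 F344 arrays, and the difference was 1.49 without lyp (SE 0.18, adjusted p = 0.00109), 1.69 with it (SE 0.18, adjusted p = 0.000419) and 1.48 for DR+/+ against F344 (adjusted p = 0.000208). Its second probe set was dim (mean 3.85) and stood at -0.25, -0.04 and -0.40, none of which passed. Scn7a, a sodium-sensing relative of the voltage-gated pores found in glia, was at 10.74 and 11.34 in JB, 10.87 and 11.28 in JBlyp/lyp, 11.24 and 11.46 in DR+/+, 9.85 and 10.10 in F344 and 9.85 and 10.01 in F344lyp. The BB arrays were again above all F344 arrays, by 1.07 (adjusted p = 0.0138) and 1.14 (adjusted p = 0.00902). The first call ended without JB replicate 2, F344 replicate 1 or F344 replicate 2 (adjusted p = 0.0744, 0.137 and 0.0593), and the other without F344lyp replicate 1 (adjusted p = 0.063) or replicate 2 (adjusted p = 0.0559). Of 12 nerve and Schwann markers 6 fell and 0 rose in JB against F344, beside 8.22% and 4.79% of all named genes. With lyp 0 fell and 2 rose, beside 11.3% and 4.7%. The part of these cells in the Scn7a difference was not tested.

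Scn9a was high in both JB groups and lowest in DR+/+. It was at 6.88 and 6.80 in JB, 7.53 and 7.46 in JBlyp/lyp, 5.50 and 5.70 in F344, 5.83 and 5.97 in F344lyp and 4.89 and 4.91 in DR+/+, and no 2 groups overlap. The difference was 1.24 without lyp (SE 0.13, adjusted p = 0.000616) and 1.59 with it (SE 0.13, adjusted p = 8.85e-05), while DR+/+ fell by 0.70 against F344 (adjusted p = 0.00285). Kcnip1, a calcium-binding subunit of A-type potassium channels, was at 8.98 and 8.80 in JB, 8.91 and 8.79 in JBlyp/lyp, 7.70 and 7.69 in F344, 8.01 and 8.03 in F344lyp and 7.64 and 7.49 in DR+/+. It rose by 1.19 without lyp (adjusted p = 0.000691) and 0.83 with it (adjusted p = 0.00368), and stood at -0.13 for DR+/+ against F344. With the mean of its 3 probe sets these rises were 0.30 and 0.19 and did not pass (adjusted p = 0.124 and 0.311). The other 2 probe sets had means of 3.10 and 3.68. Kcnh6 rose without lyp by 0.85 (adjusted p = 0.0329), a call that ended without any 1 of the JB, F344 or F344lyp arrays. With lyp Scn3b rose by 0.79, Kcnk3 by 0.55 and Kcnh5 by 0.49, and each of these 3 calls ended without either F344lyp, F344 or DR+/+ array, or without JBlyp/lyp replicate 2.

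**Figure D3:**
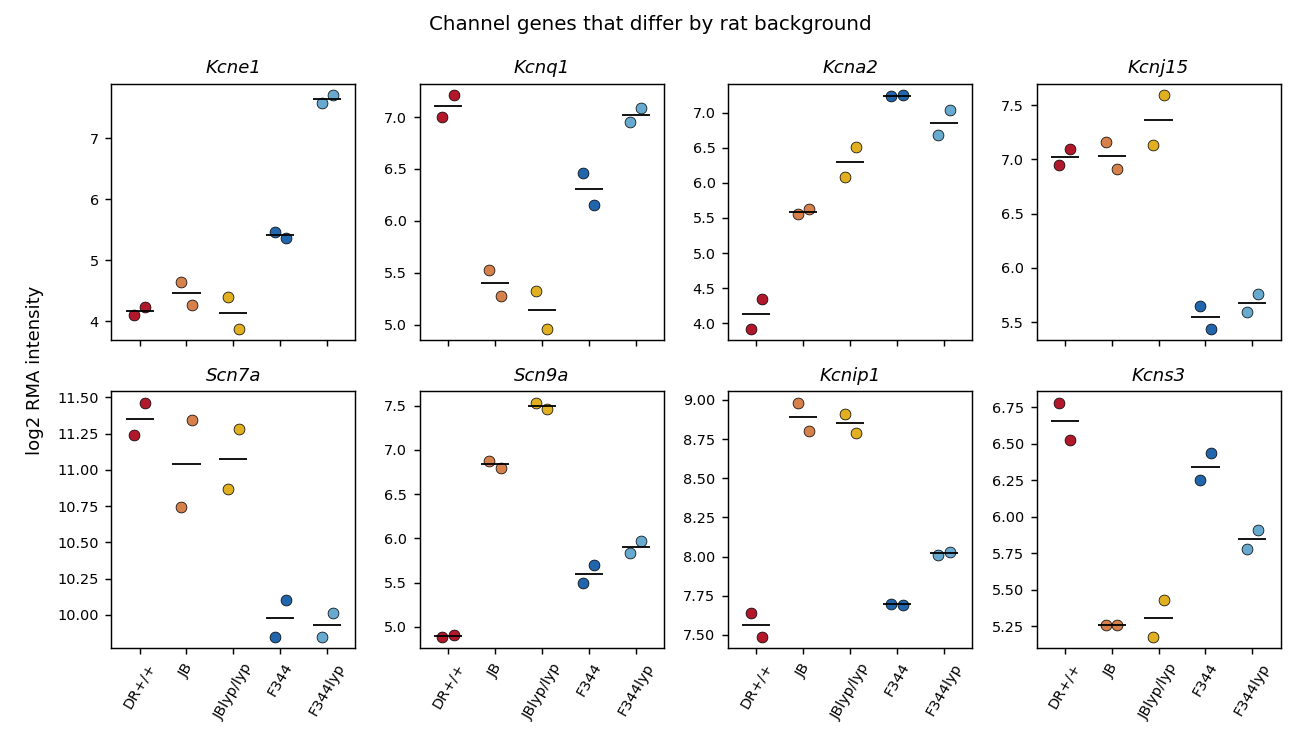
log2 RMA intensity (vertical axes, each on its own scale) of 8 channel genes on each array, by group; bars are group means of 2 arrays. Kcne1 and Kcna2 are lower and Kcnj15 and Scn7a higher on all 6 BB arrays than on the 4 F344 and F344lyp arrays, whereas Kcnq1, Scn9a, Kcnip1 and Kcns3 separate the JB groups from DR+/+.

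Falls common to both were those of Kcne1, Kcnq1 and Kcns3, 50% of the JB falls and 75% of the JBlyp/lyp falls, beside 64.7% and 47.1% over all named genes. Kcnq1 encodes a pore and Kcne1 the auxiliary subunit that slows it, and together they form a potassium channel of exocrine and other epithelia and of the heart. Kcnq1 was at 5.53 and 5.28 in JB, 5.32 and 4.96 in JBlyp/lyp, 6.46 and 6.15 in F344, 6.95 and 7.09 in F344lyp and 7.00 and 7.21 in DR+/+. The JB and JBlyp/lyp arrays lay below all others and the DR+/+ arrays overlapped those of F344lyp. The difference was -0.90 without lyp (SE 0.18, adjusted p = 0.0117), -1.88 with it (SE 0.18, adjusted p = 0.000184) and 0.80 for DR+/+ against F344 (adjusted p = 0.00685). The calls without lyp ended without F344 replicate 1 (adjusted p = 0.133) or JB replicate 2 (adjusted p = 0.0666), and that of DR+/+ without DR+/+ replicate 2 (adjusted p = 0.0565) or F344 replicate 2 (adjusted p = 0.0747). Kcns3, a subunit that forms no channel alone and modulates others, was at 5.26 on both JB arrays, 5.18 and 5.43 in JBlyp/lyp, 6.25 and 6.44 in F344, 5.78 and 5.91 in F344lyp and 6.78 and 6.53 in DR+/+. It fell by 1.08 without lyp (adjusted p = 0.0023) and by 0.54 with it (adjusted p = 0.0454), and the second call ended without any 1 of the 10 arrays.

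Kcna2 and Scn2b fell in JB against F344 and did not pass between the lyp groups. Kcna2 was at 5.55 and 5.63 in JB, 7.24 and 7.25 in F344, 6.08 and 6.51 in JBlyp/lyp, 6.68 and 7.04 in F344lyp and 3.92 and 4.34 in DR+/+. Every BB array lay below every F344 array, with a difference of -1.65 without lyp (SE 0.20, adjusted p = 0.00102) and -0.57 with it (SE 0.20, adjusted p = 0.0925). Its second probe set (mean 5.57) stood at -0.06 and 0.03, and at 0.14 for DR+/+ against F344. Scn2b fell by 0.87 without lyp (adjusted p = 0.00685, and 0.0814 without F344 replicate 1) and stood at -0.07 with it. The difference between the lyp effects on the 2 backgrounds did not pass for either gene, at 1.09 for Kcna2 (adjusted p = 0.28) and 0.80 for Scn2b (adjusted p = 0.312). Kcne4 fell by 0.68 without lyp (adjusted p = 0.0476) and Kcnn4, the intermediate-conductance calcium-activated pore, by 0.48 with it (adjusted p = 0.0493). The Kcne4 call ended without any 1 of the JB, F344 or F344lyp arrays, and the Kcnn4 call without any array but JBlyp/lyp replicate 1.

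**Figure D4:**
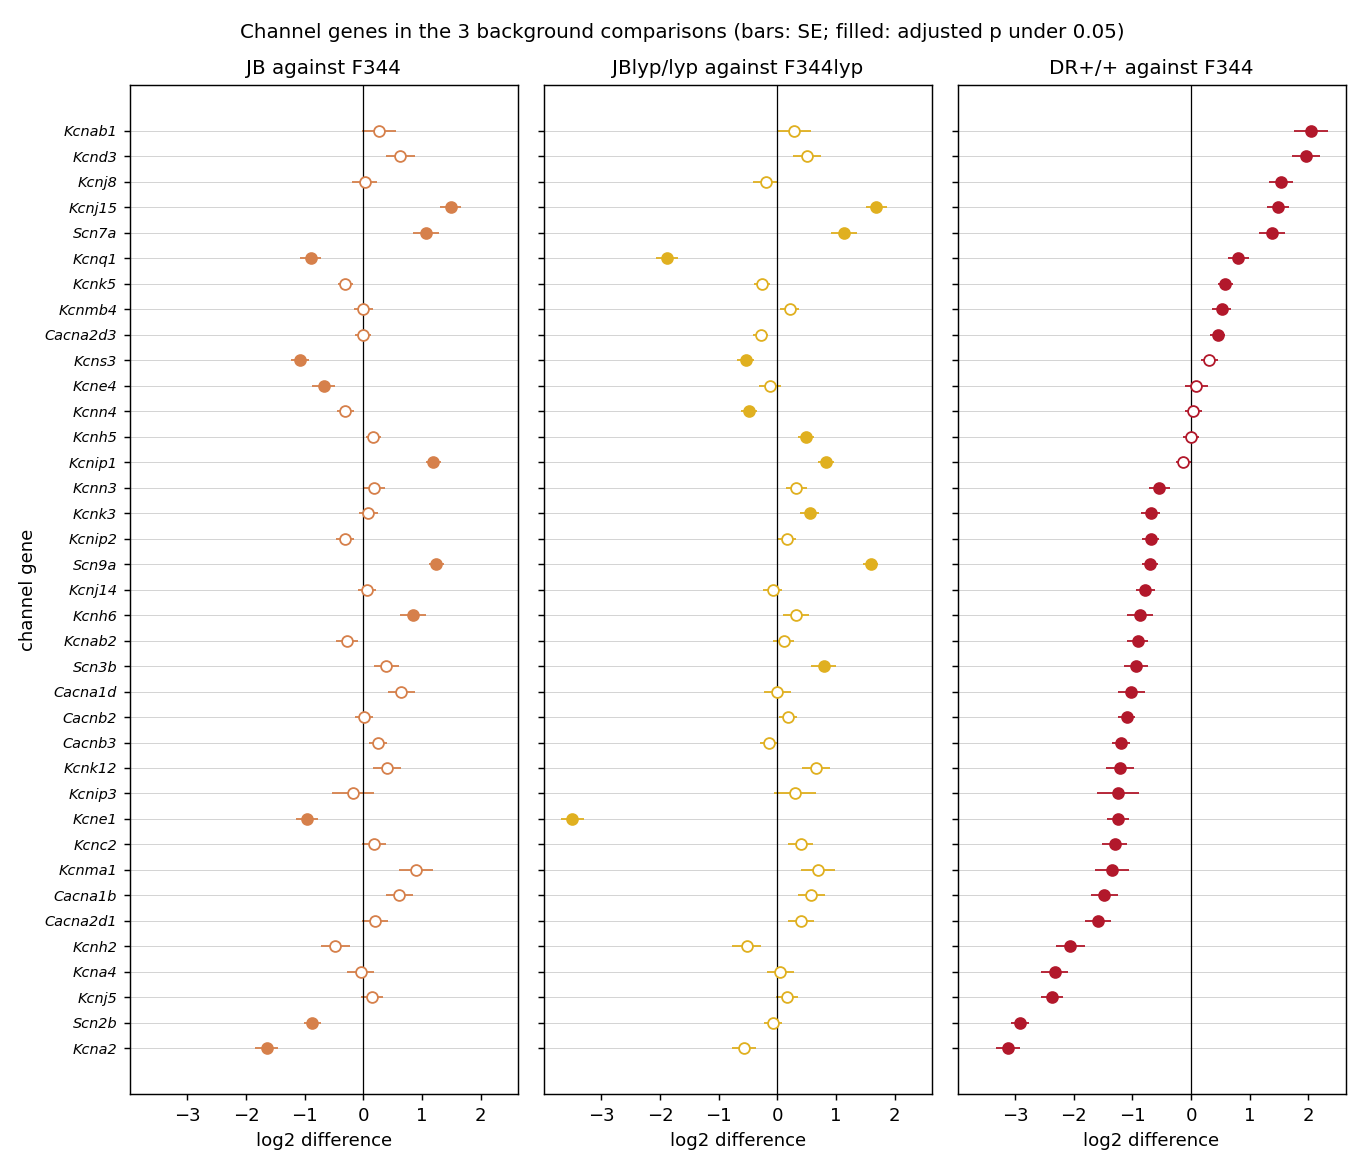
log2 difference (horizontal axes, first group minus second; bars are standard errors) of the 37 channel genes that passed in at least 1 of JB against F344, JBlyp/lyp against F344lyp and DR+/+ against F344; filled points passed the test. The DR+/+ column runs from Kcna2 (-3.12) to Kcnab1 (2.04), while Kcnj15 and Scn7a are to the right and Kcne1 to the left in all 3.

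Kcne1 was the member with the widest span, and the only one of the 111 for which lyp passed the test. It was at 5.47 and 5.37 in F344 and 7.57 and 7.70 in F344lyp, a rise of 2.22 (SE 0.19, adjusted p = 0.000553), beside 1.58% of all named genes that rose and 0.317% that fell. In JB it was at 4.65 and 4.27 and in JBlyp/lyp at 4.40 and 3.88, a difference of -0.31 (SE 0.19, adjusted p = 0.867), and these 2 groups overlap. In DR+/+ it was at 4.10 and 4.23. All 6 BB arrays were below the F344 arrays, by -0.96 for JB against F344 (adjusted p = 0.0126), -1.25 for DR+/+ against F344 (adjusted p = 0.000848) and -3.49 for JBlyp/lyp against F344lyp (SE 0.19, adjusted p = 6.95e-06). The first of these calls ended without JB replicate 2, F344 replicate 1 or F344 replicate 2 (adjusted p = 0.0743, 0.117 and 0.0732). JBlyp/lyp comes from DR breeders by the protocol, so the lyp effect in JB can also hold a difference between lines. The lyp effect in JB minus that in F344 was -2.53 (SE 0.28, adjusted p = 0.00584), beside 0.429% of all named genes with a negative difference of this kind and 0.0492% with a positive one. It stayed at -2.27 to -2.79 with any 1 array left out, and the call ended without F344 replicate 2 (adjusted p = 0.061) or F344lyp replicate 2 (adjusted p = 0.0702).

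The acinar marker mean was, like Kcne1, higher in F344lyp than in F344. So were those of duct (9.2 and 9.38 against 8.98 and 9.08), macrophage (6.71 and 6.81 against 6.42 and 6.51) and smooth muscle and pericyte markers (7.8 and 7.83 against 7.64 and 7.78). The acinar mean was 12.78 and 13.00 in F344lyp, 12.22 and 12.43 in F344, 10.77 and 11.11 in JB, 10.46 and 11.07 in JBlyp/lyp and 9.63 and 9.69 in DR+/+. Of its 16 markers 2 passed as higher in F344lyp than in F344, beside 1.58% of all named genes. In DR+/+ against JB 13 of the 16 fell (median -1.31), beside 18.4% of all named genes. Kcne1 stood at -0.29 there and did not pass. The part of acinar tissue in the Kcne1 difference was not tested. Kcnq1 stood at 0.71 for F344lyp against F344 (SE 0.18, adjusted p = 0.0913) and at -0.98 for the difference between the lyp effects (adjusted p = 0.277). In the JB lines 0 members passed for lyp by limma, where 6 of 111 had an unadjusted p under 0.05 (5.41%, against 6.03% of all named genes), and with only the JB and JBlyp/lyp arrays in the fit the count was also 0. The smallest adjusted p was 0.336, that of Scn9a, and the largest difference was 0.70, that of Kcna2. Over all named genes 0.00703% rose and 0% fell there.

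BB against F344 as a whole compares the average of the 3 BB groups with that of both control groups, since the study's design sets BB rats against other rats. Of the members 8 rose and 10 fell, 7.21% and 9.01%, beside 13.3% and 24.6% of all named genes, and among the brighter 45 the shares were 13.3% and 20%, beside 16% and 30.5%. Of the 10 falls, 5 were not called without the DR+/+ arrays. Kcnh2 at -1.05 stood at -0.50 without them (adjusted p = 0.0651). Cacnb3 at -0.42, Cacnb2 at -0.30, Kcna4 at -0.81 and Kcnj5 at -0.72 stood at 0.06, 0.10, 0.00 and 0.16. Of the rises, Kcnab1 at 0.89 and Kcnc4 at 0.29 stood at 0.27 and 0.19 and were not called either. Scn9a and Kcnip1 rose in BB but stood at -0.70 and -0.13 for DR+/+ against F344. Kcnq1 and Kcns3 fell in BB but stood at 0.80 and 0.31 there. Of these, Scn9a and Kcnq1 passed in DR+/+ against F344. Without the DR+/+ arrays 18 members were again called, 10 higher and 8 lower, and 11 genes were called in both. The share of all named genes called in that fit is not given here, so these counts have no background beside them. Arrays of the 2 sides did not overlap for 6 members. Kcnj15, Scn7a and Kcnd3 lay higher and Kcne1 and Kcna2 lower, and the other was Kcnj6, whose brightest probe set did not pass (adjusted p = 0.0813) and whose probe sets disagree. Over all named genes 4.9% lay higher and 10.6% lower without overlap. Kcnd3 was at 5.17 and 5.95 in DR+/+, 4.22 on both JB arrays, 3.90 and 3.99 in JBlyp/lyp and 3.22 to 3.69 on the F344 and F344lyp arrays, a rise of 1.06 (SE 0.15, adjusted p = 0.00071). With the group as a random block, which puts the spread between groups into the error, 3 of the 18 remained: Kcnj15 at 1.53 (adjusted p = 0.00244), Scn7a at 1.20 (adjusted p = 0.02) and Kcne1 at -2.27 (adjusted p = 0.0298).

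Kcnj6, a G-protein-gated inward rectifier, had probe sets that passed in opposite directions. In BB against F344 1 fell by 0.74 and another rose by 0.28, and with lyp they stood at -0.61 and 0.53, so no direction is given. All 4 of its probe sets were dim, with means of 3.51 to 4.02. Cacna1a had the same disagreement in DR+/+ against JB, where 1 probe set fell by 1.15 and another rose by 0.39. Other probe sets of the same gene often did not follow the brightest. Of the 35 members called in DR+/+ against JB, 15 have other probe sets, 27 in all, of which 18 went the same way and 6 also passed in that direction. Scn3b (-1.91), Kcnma1 (-1.20), Kcnc2 (-0.77), Cacna1b (-0.65) and Kcnd3 (1.35 and 0.54) are those whose further probe sets passed the same way. In BB against F344, 5 of 12 other probe sets went the same way and 1 passed, and in DR+/+ against F344 18 of 28 and 5. In JB against F344 1 of 5 went the same way and in JBlyp/lyp against F344lyp 1 of 6, and 0 passed that way in either. Among other channel genes named whatever their values, none of these passed in any comparison: Scn8a stood at -0.14 to 0.26, Kcnmb1 at -0.25 to 0.30, Cacna1c at -0.04 to 0.16 and Scnm1 at -0.60 to 0.30 over the 8 comparisons.

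The genes around the channels in stimulus and secretion were read from a list of 40, of which 34 were measured: the sulfonylurea receptor and glucose sensing genes, other channels, calcium pumps and release channels, and the exocytosis machinery. In DR+/+ against JB 18 fell and 3 rose, with a median of -0.60 beside -0.04 over all genes, of which 18.4% fell and 15.5% rose. In the same comparison 9 of 10 beta cell markers fell (median -1.73), and their part in these falls was not tested. Among the falls were Abcc8, the sulfonylurea receptor (-2.95), Snap25, a membrane fusion protein of exocytosis (-1.75), and Syt4, a synaptotagmin (-2.28), while Ano1, a calcium-activated chloride channel of epithelia, rose by 2.31. Against F344 15 fell and 4 rose in DR+/+, beside 23.8% and 16.3% of all named genes. In JB against F344 3 rose and 2 fell, beside 4.79% and 8.22% of all named genes. In JBlyp/lyp against F344lyp 9 rose and 3 fell, beside 4.7% and 11.3%. The list medians in these 2 comparisons were 0.07 and 0.12. The JB count was 1 without F344 replicate 1 or F344 replicate 2 and 2 without JB replicate 1. The JBlyp/lyp count of 12 was 4 without JBlyp/lyp replicate 2 or either F344lyp array, and 6 without either F344 array. Ryr2, an intracellular calcium release channel, rose by 1.61 without lyp and 2.25 with it. For lyp, 1 fell in F344, where Clcn3 stood at -0.90, and that call ended without any 1 of the F344 or F344lyp arrays. Over all named genes 0.317% fell for lyp in F344. In the JB lines 0 of the list passed by limma.

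The other marker lists were read beside the channels. Of 7 measured markers of other endocrine cells 5 fell and 2 rose in DR+/+ against JB, and of 10 duct markers 1 fell and 3 rose. Over all named genes 18.4% fell and 15.5% rose there. Duct markers rose in 2 of 10 cases for lyp in F344, the comparison in which Kcne1 rose, beside 1.58% of all named genes. Of 12 macrophage markers 9 fell and 0 rose in BB against F344, and of 10 T cell markers 2 fell and 1 rose. In that comparison 24.6% of all named genes fell and 13.3% rose. The part of these cells in the channel differences was not tested.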

How the data were processed

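Islet RNA, labelled as biotin cRNA, was hybridised to 10 Affymetrix 1-colour arrays, 2 for each of 5 groups. The deposited values are log2 RMA intensities for every probe set. The authors used GCOS and RMA, according to the submitters' processing notes, with versions and the set of arrays normalized together not given. After removal of 57 control probe sets, 31042 of 31099 entered the tests, with no filter on dim ones. The platform annotation gave 1 symbol for 20826 of them, several for 436 and none for 9780. All 111 members matched RefSeq's gene table for GRCr8.

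Group means were estimated in limma 3.58.1 (R 4.3.3) from all 10 arrays, with 5 residual and 4.72 prior degrees of freedom. Contrasts were tested two-sided with eBayes and Benjamini-Hochberg adjustment over the 31042 probe sets, and called under 0.05. Every adjusted p in the text comes from this fit unless a setting is named, and 95% intervals come from it too. The script was tested on simulated data. Figures used matplotlib 3.10.9 in Python 3.11.15. The number of arrays limits the precision.

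The members and lists were chosen with earlier results of these data known. Named were the 8 called members at most with the largest rise and the 8 with the largest fall in each comparison, channel genes of a written list whatever their values, and genes with probe sets called both ways. Any other gene, the motifs and the promoters shown were chosen after the values were seen.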

Additional observations from a re-analysis of the deposited data

Results flagged for a closer look

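Kcne1 differed in its lyp effect between the backgrounds by the test of that difference itself: the effect was -0.31 in JB and 2.22 in F344, a difference of -2.53 (SE 0.28, adjusted p = 0.00584, limma with Benjamini-Hochberg). Both F344lyp arrays were above both F344 arrays, while the JB and JBlyp/lyp arrays overlapped. As the relation of JB to DR is not given, the effect in JB can also hold a difference between lines. The call ended without F344 replicate 2 (adjusted p = 0.061), without F344lyp replicate 2 (adjusted p = 0.0702) and with the Gapdh 3′ minus 5′ signal as a covariate, where 0 members passed for this difference. Groups of 2 arrays were too small to look for single arrays far from the rest.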

How the results depend on the processing

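Among named members, 86 results passed the test and 81 of them kept their sign in every alternative run. Without the DR+/+ arrays, Cacnb2, Cacnb3 and Kcnj5 turned to 0.10, 0.06 and 0.16 and Kcna4 stood at 0.00 for BB against F344, and with the Gapdh 3′ minus 5′ signal as a covariate Kcne4 turned to 0.13 for JB against F344; the cause was not tested. The call was kept in all leave-one-out fits for 61 of the 86, in all alternatives but the Gapdh covariate for 47 and in every alternative for 22. With that covariate 60 of the 86 kept their sign but did not pass, and 1 changed sign.

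Leaving out 1 array at a time, the members called ranged from 14 to 24 for BB against F344, 5 to 13 for JB, 5 to 11 for JBlyp/lyp, 23 to 35 for DR+/+ against F344, 27 to 37 for DR+/+ against JB, 0 for lyp in JB, 1 for lyp in F344 and 0 to 1 for the difference between them. For the excitation and exocytosis list the ranges were, in the same order, 14 to 17, 1 to 5, 4 to 11, 17 to 20, 15 to 21, 0, 0 to 2 and 0. With the Gapdh covariate, which follows the BB and F344 groups, the members called were 0 for BB, 0 for JB, 1 for JBlyp/lyp, 1 for DR+/+ against F344 and 0 for the difference between the lyp effects, and those of the list 0, 0, 1, 0 and, for lyp in F344, 0. With the group as a random block BB against F344 had 3 members and 1 of the list. For JBlyp/lyp, the count of 11 was 7 among probe sets with a mean of at least 5 and 6 with only the compared groups in the fit, where the list had 4. For lyp in F344 the compared groups alone gave 8 members and 3 of the list, and the mean of all probe sets of a gene gave 0 of the list.

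The labels number replicates without saying what a number shares. Same-numbered arrays deviated together in some pairs of groups only (correlations of -0.10 to 0.65, the highest for JB and JBlyp/lyp), so the numbers were not taken as pairs. With a replicate block the members called were 21 for BB against F344 (18 without) and 37 for DR+/+ against JB (35 without), and the list had 2 for lyp in F344 (1 without).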
